A study of Mus musculus with 9 samples.

Results

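The transcripts of 10 mouse genes that encode H3K9 demethylases were examined in mouse embryonic fibroblasts (MEFs) lacking either of 2 pairs of H3K9 methyltransferases. The genes were Kdm1a, Kdm3a, Kdm3b, Jmjd1c, Kdm4a, Kdm4b, Kdm4c, Kdm7a, Phf8 and Phf2, taken by symbol from the 47937 genes of the count table through their Ensembl identifiers. All 10 passed the filter on low counts, as did 15540 genes in all. RNA sequencing (RNA-seq) of total RNA was available for 9 libraries, 3 each of WT, S1S2 and G9Gl MEFs. S1S2 cells carry disruptions of Suv39h1 and Suv39h2. G9Gl cells carry disruptions of G9a and Glp, which the annotation lists as Ehmt2 and Ehmt1. The WT line, as the methods describe it, is itself an Eset1-conditional MEF clone, and both mutants were derived from it with CRISPR/Cas9, so the conditional Eset1 allele is shared by the 3 lines. After the disruptions, the methods add, a Cre construct with puromycin resistance was re-introduced and the lines were kept in puromycin. Whether this held for the lines sequenced here is not stated. A mutant is 1 clone chosen by western blot, and genotype, clone and any such construct or selection cannot be told apart. The labels mention standard medium and no further treatment.

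Methylation of lysine 9 on histone H3 (H3K9) is a mark of silent chromatin that is written by lysine methyltransferases (KMT) and removed by demethylases. Kdm1a, also called LSD1, is a flavin (FAD)-dependent amine oxidase that acts on mono- and dimethylated lysines. The others carry a Jumonji (JmjC) domain and need oxygen, iron and 2-oxoglutarate: the Kdm3 enzymes (Kdm3a, Kdm3b, Jmjd1c) act on H3K9me1 and H3K9me2, the Kdm4 enzymes (Kdm4a, Kdm4b, Kdm4c) act on H3K9me3 and H3K9me2 and in part also on H3K36, and the Kdm7 enzymes (Kdm7a, Phf8, Phf2) carry a PHD finger that binds methylated H3K4. In general terms Suv39h enzymes deposit H3K9me3, and the G9a and Glp enzymes deposit H3K9me1 and H3K9me2, so the comparison asks whether the transcripts of the opposing enzymes differ when a pair of writers is lost.

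The libraries held 21319778 to 32157623 gene counts, and the S1S2 libraries included the smallest. The members had 277 (Kdm7a) to 7177 (Jmjd1c) counts in a library. The targeted genes went with the labels in part. On the CPM scale, in which counts are scaled to the size of the library, Suv39h1 was at 38.3 to 44.2 CPM in S1S2 against 103 to 113 CPM in WT, whereas Suv39h2 was at 52.7 to 57.4 CPM in S1S2 against 33.2 to 34.4 CPM in WT, so its transcript level does not check the label. Ehmt2 was at 51.9 to 57.4 CPM in G9Gl against 114 to 132 CPM in WT, and Ehmt1 at 48.6 to 51.8 CPM against 102 to 106 CPM. The summed level of 10 fibroblast markers was 9803 to 11300.4 CPM in WT, 7370 to 7433 CPM in S1S2 and 7719 to 8573 CPM in G9Gl. Of the 9 markers tested, 7 were lower in each mutant, beside 17.6% (S1S2) and 16% (G9Gl) of all genes. In each mutant 1 marker was higher, Vim in S1S2 (log2 fold change 0.72) and Thy1 in G9Gl (2.94). Markers of other cell types were low: 6 epithelial markers summed to at most 0.580 CPM in WT, 5.75 CPM in S1S2 and 5.45 CPM in G9Gl, 5 endothelial markers to at most 0.226, 1.88 and 2.53 CPM, and 6 blood markers to at most 4.43, 4.05 and 4.63 CPM, with Adgre1, Cd3e and Hbb-bs at 0 in all libraries. The 5 neural markers summed to 25.1 to 27.1 CPM in WT, 38.1 to 42.4 CPM in S1S2 and 18.6 to 26.5 CPM in G9Gl, with Rbfox3 at 0. The part of these shifts in the results below was not tested. In bulk RNA, fewer cells that express a gene and less RNA per cell cannot be told apart.

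In WT cells the members spanned a wide range of levels once counts were divided by gene length. On the scale of RPKM (CPM divided by the merged exon length in kilobases), Kdm4a had the highest level (26.5 ± 1.57, SD, n = 3), followed by Kdm1a (19.0 ± 0.931) and Jmjd1c (12.5 ± 0.147). Next came Phf2 (9.43 ± 0.891), Kdm3a (9.38 ± 0.516) and Kdm4b (9.05 ± 0.156). The libraries of these 3 neighbours overlapped, and their order is therefore not resolved. Kdm4c (7.21 ± 0.476), Kdm3b (6.02 ± 0.213), Phf8 (3.58 ± 0.202) and Kdm7a (1.35 ± 0.234) followed without overlap between neighbours. Dividing by the longest transcript in place of the merged exons left the 3 highest and the 2 lowest members in their places but moved Phf2 from rank 4 to rank 8 and Kdm3b from rank 8 to rank 5. On that scale the WT libraries of Kdm4a (32.9 ± 1.95) and Kdm1a (32.5 ± 1.59) overlapped, and their order is not resolved. In S1S2 cells Kdm1a (20.0 ± 0.215) stood above Kdm4a (18.8 ± 1.98), with overlapping libraries, and by the longest transcript Kdm4a was at rank 3. In G9Gl cells Kdm4a (25.8 ± 2.05) was again first and Kdm1a (19.9 ± 1.20) second, without overlap, but by the longest transcript Kdm1a was first and Kdm4a second in G9Gl.

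**Figure D1:**
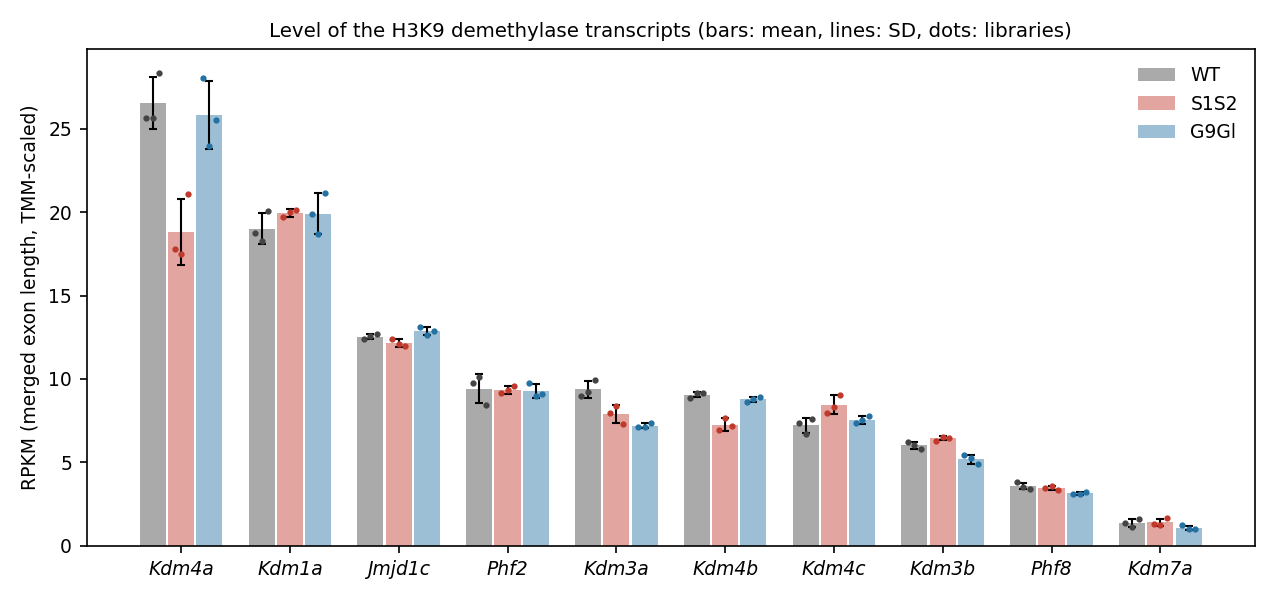
Level of the 10 H3K9 demethylase transcripts in RPKM (linear axis from 0) in WT, S1S2 and G9Gl MEFs, with bars for the mean of 3 libraries, lines for the SD and dots for single libraries. Kdm4a at 26.5 RPKM in WT was the highest and Kdm7a at 1.35 RPKM the lowest, and Kdm4a in S1S2 (18.8 RPKM) overlapped Kdm1a (20.0 RPKM).

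Summed over an enzyme family, the Kdm4 transcripts showed the widest gap between genotypes. Their sum was 42.8 ± 1.98 RPKM in WT, 34.5 ± 2.46 RPKM in S1S2 and 42.2 ± 1.84 RPKM in G9Gl, and the highest S1S2 library (37.3 RPKM) lay under the lowest WT library (41.5 RPKM). Most of the gap came from Kdm4a, at 26.5 RPKM in WT and 18.8 RPKM in S1S2. Kdm4b was at 9.05 and 7.26 RPKM, while Kdm4c went the other way, at 7.21 and 8.46 RPKM. The Kdm3 sum was 27.9 ± 0.446 RPKM in WT, 26.5 ± 0.670 RPKM in S1S2 and 25.2 ± 0.344 RPKM in G9Gl, again without overlap between the genotypes. The Kdm7 sum was 14.4 ± 0.817, 14.2 ± 0.331 and 13.5 ± 0.497 RPKM, and the libraries overlapped. All 10 members together came to 104 ± 2.51 RPKM in WT, 95.2 ± 2.39 RPKM in S1S2 and 100.8 ± 3.36 RPKM in G9Gl. These sums are descriptions and carry no test.

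**Figure D2:**
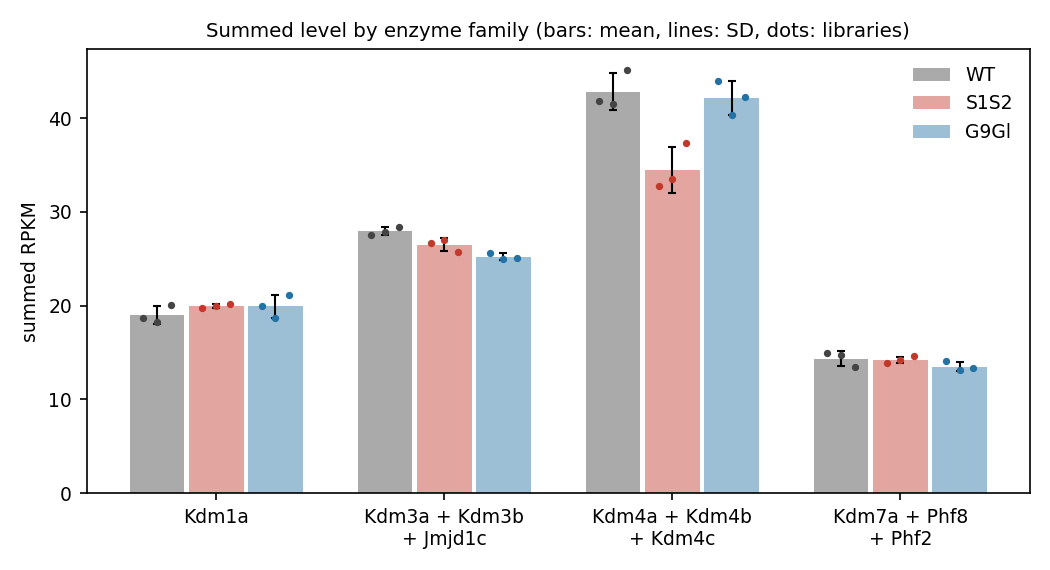
Summed RPKM of each enzyme family (linear axis from 0), with bars for the mean of 3 libraries, lines for the SD and dots for single libraries. The Kdm4 family in S1S2 (34.5 RPKM) lay under WT (42.8 RPKM) and G9Gl (42.2 RPKM), and the Kdm3 family was highest in WT (27.9 RPKM) and lowest in G9Gl (25.2 RPKM).

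In S1S2 cells, 4 of the 10 members differed from WT at an adjusted p of at most 0.01 (edgeR quasi-likelihood test, Benjamini-Hochberg adjustment over all genes, as for all adjusted p-values here unless stated). Kdm4a, Kdm4b and Kdm3a were lower and Kdm4c was higher. Of all genes tested, 37.9% differed in this comparison, 20.3% higher and 17.6% lower, so the share of members was near the background. The members' median log2 fold change was -0.03, against -0.003 over all genes. None of the 10 reached a 2-fold change, which 9% of all genes did in either direction, and DESeq2 also called none. An unadjusted p under 0.05 was reached by 4 members, beside 54.6% of all genes. In 5 members, 2 higher and 3 lower, the S1S2 and WT libraries did not overlap, as in 56% of all genes (28.5% higher and 27.5% lower).

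In G9Gl cells, 2 of the 10 members differed from WT, Kdm3a and Kdm3b, both lower. Of all genes tested, 35% differed, 19% higher and 16% lower. The members' median log2 fold change was -0.04, against -0.007 over all genes. Again none reached a 2-fold change with either tool, against 10.2% of all genes, and 4 members had an unadjusted p under 0.05, beside 52.4% of all genes. In 3 members the libraries did not overlap, all lower in G9Gl, against 52.8% of all genes (27.3% higher and 25.5% lower). The 2 comparisons with WT share the WT libraries. Among the members, Kdm3a alone differed in both mutants, and Kdm1a, Jmjd1c, Kdm7a, Phf8 and Phf2 differed in no comparison. The shares of all genes that differed in both mutants or in no comparison are not given here.

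Compared directly, the 2 mutants differed in 3 of the 10 members. Kdm4a and Kdm4b were higher and Kdm3b lower in G9Gl than in S1S2. Of all genes, 42.6% differed in this comparison, 21.6% higher and 21.1% lower. With a correction for GC content and length 6 members differed, with Kdm3a, Kdm4c and Kdm7a added, beside 46.3% of all genes. None of the 10 reached a 2-fold change with edgeR or DESeq2, against 13.1% of all genes, while 8 had an unadjusted p under 0.05, beside 57.8% of all genes. In 7 members, 3 higher and 4 lower in G9Gl, the libraries of the mutants did not overlap, as in 60.8% of all genes (30.5% higher and 30.3% lower). The members' median log2 fold change was -0.08, against 0.0002 over all genes.

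**Figure D3:**
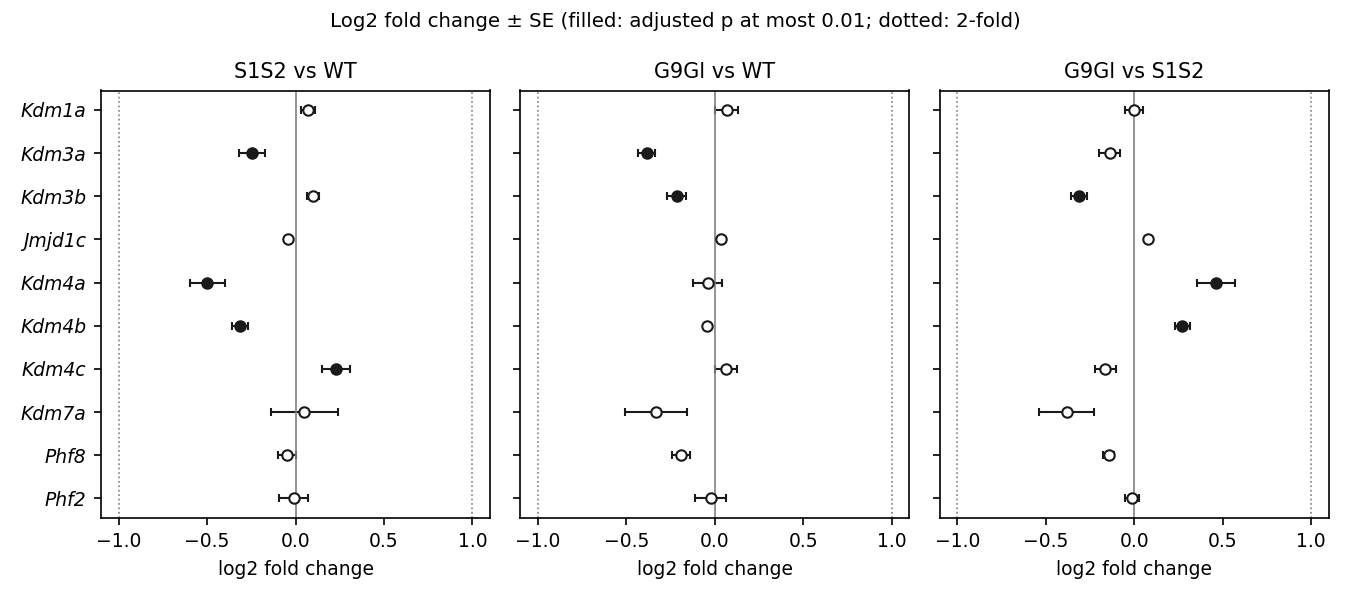
Log2 fold change (points) with its SE (lines) of the 10 members, in panels for each mutant against WT and for the mutants against each other, with filled points for an adjusted p of at most 0.01 and dotted lines at a 2-fold change. All values lie inside the dotted lines, from -0.50 (Kdm4a in S1S2 against WT) to 0.46 (Kdm4a in G9Gl against S1S2).

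Of the Kdm4 enzymes, which act on H3K9me3, the mark deposited by the Suv39h enzymes, Kdm4a showed the widest span between genotypes of any member (0.50 on the log2 scale). Kdm4a (chr4:118136957-118180043, minus strand of GRCm38) was measured at 148, 148 and 164 CPM in WT, at 103, 101 and 122 CPM in S1S2 and at 162, 138 and 148 CPM in G9Gl. All 3 S1S2 libraries lay under every WT and G9Gl library, the third S1S2 library being the highest of its group, and the WT and G9Gl libraries overlapped. The level fell by 0.50 ± 0.098 (SE) on the log2 scale in S1S2 against WT, or by 29.3% (adjusted p = 1.21e-05). In G9Gl against WT the difference was -0.04 ± 0.082 (adjusted p = 0.669). G9Gl exceeded S1S2 by 0.46 ± 0.108 (adjusted p = 2.29e-05).

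Kdm4b (chr17:56326062-56402870, plus strand), a second enzyme of the family with 43.4, 44.8 and 44.7 CPM in WT, was at 34.0, 37.5 and 35.2 CPM in S1S2 and at 42.2, 43.1 and 43.7 CPM in G9Gl. Its S1S2 libraries were all lower than those of both other genotypes. The fall in S1S2 against WT was -0.32 ± 0.044 on the log2 scale, or -19.7% (adjusted p = 8.74e-05), and the difference between G9Gl and S1S2 was 0.27 ± 0.044 (adjusted p = 3.07e-04). In G9Gl against WT it was -0.04 ± 0.021 (adjusted p = 0.523). The genes tested on chromosome 17 had a median difference (log2) of -0.0998 for S1S2 against WT and 0.122 for G9Gl against S1S2. With chromosome medians removed, Kdm4b remained lower in S1S2 than in WT (-0.22, adjusted p = 0.00252), while the direct difference between the mutants was 0.15 (adjusted p = 0.0240). With the correction for GC content and length, the direct difference was 0.45 (adjusted p = 1.72e-06).

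Kdm4c (chr4:74242497-74405860, plus strand) went the other way from its relatives. It was at 42.9, 38.9 and 44.2 CPM in WT, at 46.4, 48.5 and 52.8 CPM in S1S2 and at 42.7, 43.9 and 45.2 CPM in G9Gl. Every S1S2 library lay above the WT and G9Gl libraries, which overlapped. The rise in S1S2 against WT was 0.23 ± 0.078 on the log2 scale, or 17.2% (adjusted p = 0.00471). It missed the threshold without WT library 1 (adjusted p = 0.0128), WT library 2 (0.0259), S1S2 library 2 (0.0144) or S1S2 library 3 (0.0329), and without a composition factor (0.0159). Kdm4c differed by 0.06 ± 0.061 in G9Gl against WT (adjusted p = 0.413) and by -0.16 ± 0.059 in G9Gl against S1S2 (adjusted p = 0.0306). The latter passed the threshold with the GC and length correction (-0.28, adjusted p = 3.32e-04).

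**Figure D4:**
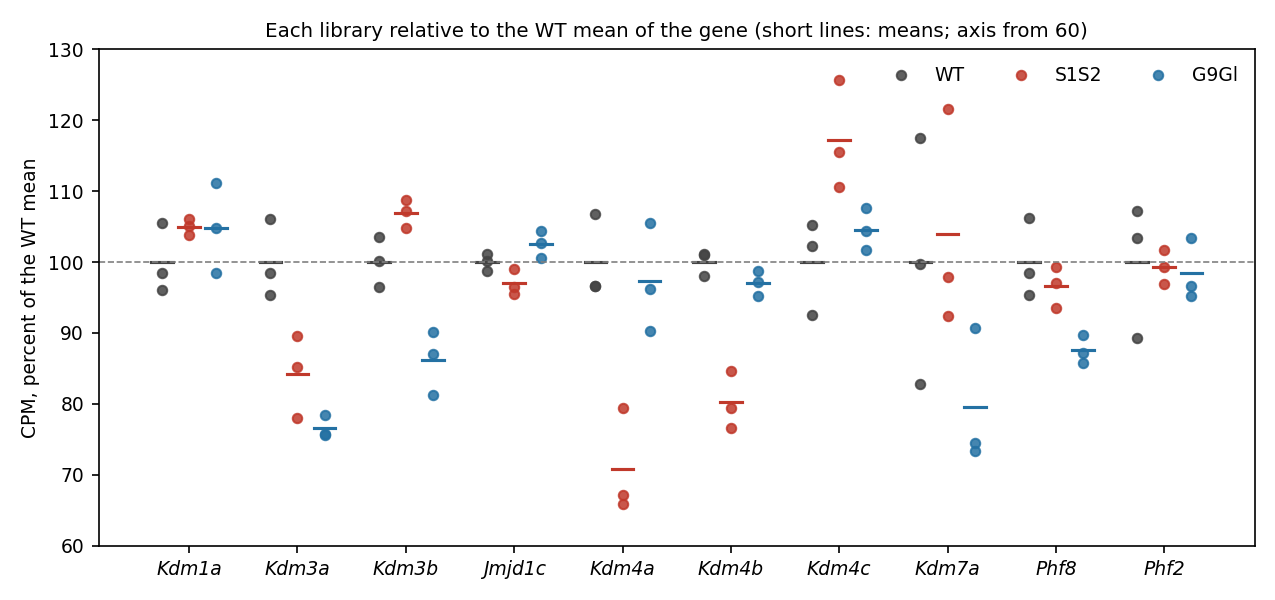
CPM of each library as a percent of the WT mean of the same gene (linear axis from 60 to 130), with dots for libraries and short lines for the mean of a genotype. Kdm4a and Kdm4b in S1S2, and Kdm3a in both mutants, lie under all WT dots, while Kdm4c in S1S2 lies above them.

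Among the Kdm3 enzymes, which remove the H3K9me1 and H3K9me2 that G9a and Glp deposit, Kdm3a (chr6:71588972-71632990, minus strand), known as a gene induced by hypoxia, was lower in both mutants. It was at 73.6, 76.0 and 81.9 CPM in WT, at 65.7, 69.1 and 60.2 CPM in S1S2 and at 58.4, 58.4 and 60.5 CPM in G9Gl. All mutant libraries lay under the WT libraries, and the lowest S1S2 library fell inside the G9Gl range. Kdm3a fell by 0.38 ± 0.048 on the log2 scale in G9Gl, or by 23.4% (adjusted p = 1.92e-05), and by 0.25 ± 0.074 in S1S2, or by 15.6% (adjusted p = 0.00144). The S1S2 fall missed the threshold without S1S2 library 3, which had the lowest level (-0.19, adjusted p = 0.0113). Between the mutants the difference was -0.14 ± 0.061 (adjusted p = 0.0483), and with the GC and length correction it was past the threshold (-0.20, adjusted p = 0.00281). Without S1S2 library 2 it was smaller (-0.087, adjusted p = 0.282).

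Kdm3b (chr18:34777047-34838660, plus strand) was at 87.8, 84.9 and 81.8 CPM in WT, at 88.9, 92.2 and 91.0 CPM in S1S2 and at 76.4, 73.9 and 68.9 CPM in G9Gl. The 3 genotypes did not overlap, with S1S2 highest and G9Gl lowest. In G9Gl the level fell by 0.22 ± 0.053 on the log2 scale against WT, or by 13.9% (adjusted p = 0.00132), and this missed the threshold without WT library 1 (-0.19, adjusted p = 0.0122) or without G9Gl library 3 (-0.17, adjusted p = 0.0129). The difference of S1S2 from WT was 0.10 ± 0.033 (adjusted p = 0.110), and G9Gl differed from S1S2 by -0.31 ± 0.047 (adjusted p = 3.35e-05). Of the 75-base stretches of the Kdm3b transcripts, 23.2% also occur in transcripts of other genes, chiefly the antisense gene Gm26538, which had at most 1 count in a library. Whether this sharing moved the counts of Kdm3b was not tested.

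Jmjd1c (chr10:67096125-67256326, plus strand), the third Kdm3 enzyme and the member with the most counts, was at 221, 224 and 226 CPM in WT, at 221, 216 and 213 CPM in S1S2 and at 233, 225 and 229.6 CPM in G9Gl. S1S2 differed from WT by -0.04 ± 0.018 (adjusted p = 0.353), and G9Gl by 0.04 ± 0.018 (adjusted p = 0.463). Between the mutants, whose libraries did not overlap, it was 0.08 ± 0.022 (adjusted p = 0.0841). For the genes tested on chromosome 10 the median difference (log2) was -0.154 for S1S2 against WT and 0.194 for G9Gl against S1S2, and the sign of both Jmjd1c values turned when chromosome medians were removed (0.11 and -0.11). Kdm1a (chr4:136550540-136602723, minus strand), the FAD-dependent enzyme, was at 97.0, 94.6 and 104 CPM in WT, at 102, 104 and 104 CPM in S1S2 and at 103, 97.0 and 109 CPM in G9Gl. Its libraries overlapped in all comparisons, S1S2 differing from WT by 0.07 ± 0.041 (adjusted p = 0.269) and G9Gl by 0.07 ± 0.064 (adjusted p = 0.286).

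The 3 Kdm7 enzymes did not pass the test in any comparison. Phf8 (chrX:151520672-151633859, plus strand), a demethylase of H3K9me2 and H4K20me1, was at 35.5, 32.9 and 31.8 CPM in WT, at 32.4, 33.1 and 31.2 CPM in S1S2 and at 28.6, 29.1 and 30.0 CPM in G9Gl. The G9Gl libraries lay under all others, at -0.19 ± 0.050 against WT, just beyond the threshold (adjusted p = 0.0111). It passed the threshold without WT library 3 (adjusted p = 0.00486), without a composition factor (0.00478), with the GC and length correction (0.00604) and with chromosome medians removed (0.00358). It was smaller without WT library 1 (-0.15, adjusted p = 0.0827), and its adjusted p was 0.0261 with DESeq2. The difference of S1S2 from WT was -0.05 ± 0.053 (adjusted p = 0.515), and that of G9Gl from S1S2 was -0.14 ± 0.032 (adjusted p = 0.0498).

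Kdm7a (chr6:39136623-39206789, minus strand), which acts on H3K9 and H3K27, had the fewest counts and the widest spread, with 13.5, 11.2 and 16.0 CPM in WT, 13.3, 12.5 and 16.5 CPM in S1S2 and 12.3, 9.95 and 10.1 CPM in G9Gl. The G9Gl libraries overlapped those of WT but lay under those of S1S2. The difference was -0.33 ± 0.175 in G9Gl against WT (adjusted p = 0.0421), -0.38 ± 0.155 in G9Gl against S1S2 (adjusted p = 0.0208) and 0.05 ± 0.188 in S1S2 against WT (adjusted p = 0.780). Without WT library 2, the values in G9Gl passed the threshold against WT (-0.45, adjusted p = 0.00554) and against S1S2 (-0.38, adjusted p = 0.00863), and the latter also passed without WT library 3 (adjusted p = 0.00853) or G9Gl library 1 (adjusted p = 0.00745). Without a filter on low counts both passed (adjusted p = 0.00182 and 6.44e-04), and the difference between the mutants also passed with only these genotypes in the fit (0.00797) and with the GC and length correction (0.00310). Against WT, the G9Gl value was smaller without WT library 3 (-0.20, adjusted p = 0.205). Its adjusted p was 0.0855 without WT library 1 and 0.0660 with DESeq2. The difference between the mutants had an adjusted p of 0.0262 with DESeq2. Phf2 (chr13:48801750-48871119, minus strand), which works with the DNA-binding partner Arid5b, ranged from 46.2 to 55.5 CPM in WT, from 50.2 to 52.7 CPM in S1S2 and from 49.3 to 53.6 CPM in G9Gl. The genotypes overlapped. It had the narrowest span of the 10 members, S1S2 differing from WT by -0.01 ± 0.083 (adjusted p = 0.908) and G9Gl by -0.02 ± 0.089 (adjusted p = 0.790).

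RefSeq promoters (GRCm38.p6, 250 bases before to 50 bases after the start) were at hand for 8 members, with 12 entries in all. They were searched on both strands for the core motif of the hypoxia-inducible factors, ACGTG or GCGTG, because Kdm3a is known as a hypoxia-inducible demethylase and the JmjC enzymes need oxygen. Of 32851 promoters, 43.8% held a match (19.6% ACGTG and 32.4% GCGTG). Matches were found in entries of Kdm1a (3), Kdm3a (1), Jmjd1c (3), Kdm4c (6), Kdm7a (2) and Phf8 (2), and none were found for Kdm4a and Phf2. The share of 43.8% counts single entries, whereas a member has up to 3 entries. Both motifs hold the letters CG. Entries with a match held 24 (Kdm3a) to 65 (Kdm7a) CG, against a median of 7 over all promoters. Phf2, without a match, held 63. Whether the CG content bears on the matches was not tested. A match is a description of letters in a window, and matches on the 2 strands may overlap within a stretch. The 250 bases upstream of the start are shown for the members that differed in S1S2 and have an entry, with the matches in capitals. Kdm4a lies at chr4:118180044-118180293 (minus strand), the Kdm3a entry that holds a match at chr6:71632918-71633167 (minus strand) and the Kdm4c entry that holds matches at chr4:74251629-74251878 (plus strand).
Kdm4a: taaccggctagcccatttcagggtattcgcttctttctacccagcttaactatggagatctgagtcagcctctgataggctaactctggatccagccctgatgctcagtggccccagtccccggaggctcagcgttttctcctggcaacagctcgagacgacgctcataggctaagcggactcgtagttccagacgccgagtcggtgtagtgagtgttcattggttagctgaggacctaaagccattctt
Kdm3a: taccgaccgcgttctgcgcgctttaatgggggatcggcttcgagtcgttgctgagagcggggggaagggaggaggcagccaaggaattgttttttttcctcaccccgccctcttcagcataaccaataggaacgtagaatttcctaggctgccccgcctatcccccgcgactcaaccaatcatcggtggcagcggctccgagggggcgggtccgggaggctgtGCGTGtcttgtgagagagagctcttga
Kdm4c: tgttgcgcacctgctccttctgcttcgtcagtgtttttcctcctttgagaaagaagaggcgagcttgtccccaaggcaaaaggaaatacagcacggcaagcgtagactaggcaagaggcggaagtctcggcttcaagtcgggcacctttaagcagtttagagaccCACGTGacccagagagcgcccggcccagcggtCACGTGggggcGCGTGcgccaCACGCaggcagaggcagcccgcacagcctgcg
The Kdm3a stretch holds a single GCGTG near its end. The 6 matches of Kdm4c fall in 4 runs of capitals, since a palindromic run counts on both strands. In the Kdm4a stretch, upstream of the member with the largest fall in S1S2, no letters are in capitals. A further Kdm4c entry, a further Jmjd1c entry and 2 further Kdm3a entries held no match.

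For each member, the gene with the most similar log2 CPM over the 9 libraries was sought as a description. For Kdm4a these were Psph (phosphoserine phosphatase, Pearson r = 0.995), Lars (leucyl-tRNA synthetase, r = 0.993) and Atf4 (a bZIP transcription factor, r = 0.993). Psph, Lars and Atf4 had log2 fold changes of -1.01, -0.80 and -0.74 in S1S2 against WT and of -0.11, -0.08 and -0.05 in G9Gl against WT, so that Kdm4a moved less than any of them. For the other members the nearest gene was Pcdhb5 for Kdm4b (r = 0.995), Mocs2 for Kdm1a (0.992), Pan3 for Phf8 (0.986), Zfp354b for Kdm3a (0.983), Eepd1 for Kdm3b (0.983), 1110046J04Rik for Kdm4c (0.968), Gm11110 for Jmjd1c (0.967), Fnip1 for Kdm7a (0.960) and B230377A18Rik for Phf2 (0.903). The 9 points fall into 3 genotypes and the genes were picked among 15540, so these values are no test.

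The remaining histone demethylases are given for comparison. Of the 14 tested of 16 listed, 1 was higher and 3 lower in S1S2, and 1 was higher and 5 lower in G9Gl, beside 20.3% higher and 17.6% lower of all genes in S1S2 and 19% higher and 16% lower in G9Gl. Hr, a JmjC demethylase of the same subgroup as the Kdm3 enzymes, fell by 1.49 on the log2 scale in G9Gl (adjusted p = 1.61e-09), past a 2-fold change, and differed by -0.01 in S1S2 (adjusted p = 0.973). Kdm1b, the relative of Kdm1a, had the largest rise past the threshold in both mutants, at 0.24 with an adjusted p of 0.00146 for S1S2 and 0.31 with an adjusted p of 1.16e-04 for G9Gl. Kdm5b, an H3K4 demethylase, fell by 0.40 in S1S2 (adjusted p = 3.25e-05). The list's median log2 fold change was -0.06 in S1S2 and -0.08 in G9Gl.

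Partner proteins of Kdm1a and Phf2, mostly subunits of the CoREST complex that joins Kdm1a to histone deacetylases, were next. Of 12 tested of 14 listed, 7 were lower in each mutant and 1 was higher in S1S2, with medians of -0.22 in S1S2 and -0.23 in G9Gl and no 2-fold change. Of all genes, 17.6% were lower and 20.3% higher in S1S2, and 16% were lower in G9Gl. Rcor2, a CoREST scaffold, fell by 0.60 in S1S2 (adjusted p = 2.37e-08), and Rcor3, a further CoREST scaffold, fell by 0.76 in G9Gl (adjusted p = 9.94e-09). Gse1 rose by 0.58 in S1S2 (adjusted p = 7.76e-06). The difference between this list and the demethylases was not tested.

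The opposing H3K9 methyltransferases, of which 8 of 9 listed were tested, include the targeted genes and are read beside the shares of 37.9% (S1S2) and 35% (G9Gl) over all genes. In S1S2, 2 were higher and 3 lower, from Suv39h2 (0.70, adjusted p = 3.01e-08) to Suv39h1 (-1.36, adjusted p = 2.62e-12). In G9Gl, 1 was higher and 3 lower, from Mecom (0.70, adjusted p = 5.80e-08), which encodes a PR-domain protein, to Ehmt2 (-1.20, adjusted p = 9.16e-12). None of the 10 members changed as far as the targeted Suv39h1 or Ehmt2 did.

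Genes known to respond to hypoxia, as Kdm3a does, and genes that make or use 2-oxoglutarate and FAD, the cofactors of the demethylases, completed the lists. Of 19 hypoxia-responsive genes tested of 20, 3 were higher and 9 lower in S1S2 (3 of these past a 2-fold change), with a median of -0.27, and 4 were higher and 4 lower in G9Gl, with a median of 0.03. Of all genes, 20.3% were higher and 17.6% lower in S1S2, with 9% past a 2-fold change, and 19% were higher and 16% lower in G9Gl. Pdk1, a kinase that limits the entry of pyruvate into the citric acid cycle, had the largest fall past the threshold in both mutants, at -1.16 with an adjusted p of 1.03e-07 for S1S2 and -0.86 with an adjusted p of 2.47e-06 for G9Gl. Egln3, an oxygen-sensing prolyl hydroxylase, rose in S1S2 (0.80, adjusted p = 9.80e-05), and Hk2, a hexokinase, rose in G9Gl (0.53, adjusted p = 6.55e-08). Between the mutants, 8 of the 19 were higher and 1 lower in G9Gl, beside 21.6% and 21.1% of all genes.

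Of 16 cofactor genes, all tested, 6 were higher and 3 lower in S1S2 (median 0.07), and 4 were higher and 4 lower in G9Gl (median 0.08), none past a 2-fold change, beside 37.9% and 35% of all genes that differed. Idh1, which makes 2-oxoglutarate in the cytosol, showed the largest fall past the threshold in G9Gl (-0.70, adjusted p = 2.10e-09), and D2hgdh, which oxidizes D-2-hydroxyglutarate to 2-oxoglutarate, the largest in S1S2 (-0.67, adjusted p = 8.01e-05). Rfk, which phosphorylates riboflavin on the way to FAD, rose in S1S2 (0.48, adjusted p = 7.46e-06), and Flad1, the FAD synthetase, rose in G9Gl (0.38, adjusted p = 7.31e-04).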

How the data were processed

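RNA was prepared from MEFs with a stranded total RNA kit and sequenced as paired-end reads. Per the study's methods and processing notes, the authors trimmed the reads, aligned them to GRCm38 with STAR 2.5.2b and counted genes with TEtranscripts. The deposited values are raw counts per Ensembl gene, and the authors did not normalize them. The annotation release and the strand setting are not given in the sources used here. Reads that align to several genes can be shared among them.

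Identifiers were matched to GENCODE M21 (47310 of 47937 genes; 627 were not matched, and 21449 genes had no count). Genes were filtered with filterByExpr, which left 15540, and scaled by TMM factors. Genotype was the only term of a single edgeR 4.0.16 quasi-likelihood model (R 4.3.3, glmQLFit and glmQLFTest) of the 9 libraries. A gene was taken to differ when its adjusted p (Benjamini-Hochberg) did not exceed 0.01. The common biological coefficient of variation was 5.36%. SEs come from log2 CPM with a prior count of 2. RPKM was computed from the TMM-scaled CPM and the merged exon length. The libraries held 21319778 to 32157623 counts, without molecular identifiers.

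All 10 members were described. From each other list the largest rise and the largest fall past the threshold in each mutant were named, together with the genes most like each member and, chosen after their values were seen, the targeted genes where they are not named by that rule. A result that this rule names is not reported here. The members and lists were chosen with earlier results of these data known. The study's methods call the 3 replicates of a line biological. Neither they nor the labels say whether these were separate cultures, so p-values measure the spread between these libraries of a single clone for each mutant. No replicates were duplicates (chi-square divided by its degrees of freedom, 2.59 to 24.5). The test was checked on simulated data. The alternatives were DESeq2 1.42.0, DESeq2 size factors, no composition factor, other filters on low counts (none, or at least 10 counts in every library), only the genotypes compared, a replicate block, GC and length splines with 5 degrees of freedom, chromosome medians removed, an adjusted p of 0.05, and leaving out each library. Motifs were searched with Python 3.11.15.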

Additional observations from a re-analysis of the deposited data

Results flagged for a closer look

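Of the 10 members, 3 differed between the 2 mutants in the direct comparison of G9Gl with S1S2 in the edgeR fit, beside 42.6% of all genes tested. With the GC and length correction 6 members differed, beside 46.3% of all genes. Kdm4a was higher in G9Gl by 0.46 on the log2 scale, with all 3 G9Gl libraries above all 3 S1S2 libraries. Kdm4b was higher in G9Gl by 0.27, again in every library, and was at 0.15 (adjusted p = 0.0240) with chromosome medians removed and at 0.45 (adjusted p = 1.72e-06) with the GC and length correction. Kdm3b differed by -0.31, with all G9Gl libraries under the S1S2 libraries. These comparisons rest on 1 clone for each mutant, and clone and genotype cannot be told apart.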

How the results depend on the processing

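For the 10 members in 3 comparisons (30 values), 570 alternatives were computed. In 501 the direction and the side of the adjusted p of 0.01 were kept, in 9 a value lost the threshold, in 19 it gained it, and in 41 the sign of a value that was not past the threshold turned. Of the 9 values past 0.01, 5 stayed past it under every alternative: Kdm4a and Kdm4b in S1S2, Kdm3a in G9Gl, and Kdm4a and Kdm3b between the mutants.

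The number of members differing in S1S2 against WT (4) lay between 2 and 4 when single libraries were left out, with 2 without S1S2 library 3 (33.5% of all genes in that fit). In G9Gl against WT (2) it lay between 1 and 3, with 1 without WT library 1 (29% of all genes) or without G9Gl library 3 (29.3%), and it was 4 at an adjusted p of 0.05 (45.9%). Between the mutants (3) it lay between 3 and 4, it was 2 with chromosome medians removed (38.6% of all genes), and it was 6 with the GC and length correction (46.3%), 6 with the replicate block and that correction (46.3%), and 7 at an adjusted p of 0.05 (53.3%). The members gained between the mutants by the GC and length correction, without and with the block, were Kdm3a, Kdm4c and Kdm7a. The number past a 2-fold change was 0 throughout. Same-numbered libraries correlated between -0.0686 and 0.124 in their deviations from the genotype means, and in no comparison did every pair exceed 0.1, so the numbers were not taken to pair the libraries. With the replicate block the count was 4 in S1S2 (37.9% of all genes), 2 in G9Gl (35.1%) and 4 between the mutants (43%), where Kdm7a passed (-0.38, adjusted p = 0.00566).

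Signs turned as follows, all on the log2 scale. With the GC and length correction, without and with the block, Jmjd1c was at 0.0021 and 0.0020 in S1S2, at -0.041 and -0.041 in G9Gl and at -0.043 and -0.043 between the mutants. In G9Gl, Kdm4b was at 0.047 and 0.047, Kdm4c at -0.011 and -0.011, and Phf2 at 0.057 and 0.058. Between the mutants, Phf2 was at 0.141 and 0.141 and Kdm1a at 0.030 and 0.027. With chromosome medians removed, Jmjd1c was at 0.109 in S1S2 and at -0.108 between the mutants. Between the mutants, Kdm1a was at 0.0016 with DESeq2 size factors, 0.0040 with DESeq2, 0.012 without a filter and 0.011 with at least 10 counts, and Phf2 was at 0.0012 without a filter and 0.00091 with at least 10 counts. Leaving out single libraries gave -0.075 to 0.176 for Kdm7a in S1S2, -0.089 to 0.041 for Phf2 in S1S2, -0.101 to 0.012 for Kdm4a in G9Gl, -0.097 to 0.029 for Phf2 in G9Gl, -0.040 to 0.041 for Kdm1a between the mutants and -0.049 to 0.010 for Phf2 between the mutants. The cause was not tested.

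With 3 libraries a genotype and 277 to 7177 counts for a member in a library, the smallest log2 change past the threshold was that of Kdm3b in G9Gl (-0.22), while -0.38 for Kdm7a between the mutants, with the fewest counts, was not past it.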
